A study of Mus musculus with 12 samples.

Results

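miR-296 and miR-298 are made from neighbouring microRNA (miRNA) genes at the imprinted Gnas locus of the mouse, and 3 of the 375 miRNA assays on the arrays used here read their products. The assays were picked by name, as the rows for mmu-miR-298, mmu-miR-296-5p and mmu-miR-296-3p, written below without the prefix for the mouse. Murine pulmonary endothelial cells, isolated from wild type mice, were measured on 12 TaqMan low-density arrays (TLDA), 4 of unstimulated control cells, 4 of cells given Tri-DAP and 4 of cells given MDP. According to the methods, the mice were male C57BL/6N, 6 to 10 weeks old, and the lungs of 3 mice went into each isolation. CD144 and CD31 beads selected the cells, which were grown to confluence and kept in low serum. Each ligand was then given at 10 μg/mL for 6 hours. The wild type genotype is taken from the results of the paper, where cells lacking Nod1 and Nod2 appear as a control for real-time PCR. The array labels give no genotype. Tri-DAP is the tripeptide fragment of bacterial peptidoglycan sensed by NOD1, and MDP (muramyl dipeptide) is the fragment sensed by NOD2, both receptors inside the cell that switch on inflammatory genes. Arrays are named below by their group and the number in their label (control 4, 7, 10 and 13; Tri-DAP 5, 8, 11 and 14; MDP 6, 9, 12 and 15). The labels do not say which arrays share an isolation, so that p-values measure the spread between these arrays.

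A miRNA is cut from a hairpin in a longer transcript, and either side of the hairpin, the 5p arm and the 3p arm, can be loaded into the silencing complex, where the bases near its 5′ end, the seed, choose the messenger RNAs it binds. Imprinted genes are transcribed from 1 parental copy only. At the Gnas locus, which encodes the stimulatory G protein alpha subunit, several promoters and an antisense transcript, Nespas (Gnasas1 in RefSeq), are marked differently on the maternal and the paternal chromosome, and the miR-296 and miR-298 hairpins lie beside Nespas. Neighbouring miRNA genes are often cut from 1 shared transcript and then rise and fall together. The question asked of the arrays was whether these neighbours varied together, and whether either ligand moved them.

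The mature sequences are shown because they say what the assays can and cannot tell apart. They are the entries of RefSeq on build GRCm38.p6, 5′ to 3′, with the seed (bases 2 to 8) in capitals, and all lie on the minus strand of chromosome 2.
miR-298-5p: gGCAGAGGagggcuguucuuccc
miR-296-5p: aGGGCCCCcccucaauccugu
miR-296-3p: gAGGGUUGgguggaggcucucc
The miR-298-5p sequence lies at chr2:174267553-174267575, miR-296-5p at chr2:174267093-174267113 and miR-296-3p at chr2:174267058-174267079. The 3 seeds differ, and none of the 1738 mature mouse sequences searched shares a seed with any of them, so the 3 miRNAs have no seed family in common although 2 of them come from 1 hairpin. The hairpins of 79 bases (miR-296) and 82 bases (miR-298) are separated by 378 bases. They overlap 0 other annotated genes, exonic or intronic, and their nearest neighbours in the table were Gnasas1 on the side of the higher coordinates and Gm10714 on the other. The assay is named miR-298 with no arm, and RefSeq holds 2 mature sequences of that hairpin. The 5p sequence is printed because the paper calls the miRNA miR-298-5p, a miRNA it picked from these same arrays. By real-time PCR the paper also reports it reduced after NOD1 stimulation, in pulmonary and in cardiac endothelial cells, but not in cells lacking Nod1 and Nod2. The paper further studied the miRNA with a mimic, an inhibitor and luciferase reporters. Those PCR values and experiments are not part of the arrays.

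For each assay an array gives the threshold cycle (Ct) of the PCR. The more RNA there was, the lower the Ct, with 1 cycle for each factor of 2, and wells listed at 40, where the PCR ended, are called undetermined. Between 231 and 254 miRNAs were measured per array, and 174 were measured on all 12. The endothelial miR-126-3p came early, at Ct 18.6 to 20.6, and 5 of the 320 miRNAs measured on some array had an earlier mean Ct. All 7 epithelial and all 4 leukocyte markers were measured on some array, and 2 of each list on all. The mural cell and fibroblast markers were on all arrays, and their Ct moved with the label number in every group. miR-145 was at Ct 29.3 to 30.3 on arrays 4 to 6, 31.8 to 33.1 on arrays 7 to 9, 26.997 to 28.008 on arrays 10 to 12 and 23.1 to 23.5 on arrays 13 to 15. Each such set of 3 consecutive numbers holds 1 array of every group. The study speaks of independent cell isolations, 4 in number, which would fit 1 array of each group per isolation, but no source ties an array to an isolation. The sets are therefore a division seen in the data, tests that take the 12 arrays as independent may not hold if a set shares an isolation, and values within sets are given beside them. Fewer cells of a type and less RNA per cell cannot be told apart in such samples.

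The 3 miRNAs lay at different places in the measured range. miR-296-5p had the earliest Ct of them, with a mean of 29.1 ± 0.78 (SD, n = 12), and 33.4% of the 320 measured miRNAs had an earlier mean. miR-298 had a mean Ct of 31.4 ± 1.13 (SD, n = 12), with 54.1% of the miRNAs earlier. miR-296-3p was measured on 10 of 12 arrays with a mean Ct of 32.1 ± 1.19 (SD, n = 10), and 60.3% of the miRNAs were earlier. Different assays amplify with different efficiency, so a Ct order of assays is not an order of molecule numbers. The spread of miR-298 and miR-296-3p was not unusual for late assays. Among the 94 assays measured on at least 10 arrays with a mean Ct over 30, the median SD was 1.09. It was taken relative to the mean of the 174 miRNAs, on the log2 scale. On that scale the SD was 1.204 for miR-298 and 1.19 for miR-296-3p. miR-296-5p, whose mean Ct was under 30, had an SD of 0.72, where the median of the 174 miRNAs was 0.66.

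miR-298 was read on every array. Its Ct on the control arrays was 30.45 on control 4, 29.92 on control 7, 33.81 on control 10 and 30.26 on control 13. After Tri-DAP it was 31.95 on Tri-DAP 5, 32.04 on Tri-DAP 8, 30.91 on Tri-DAP 11 and 32.104 on Tri-DAP 14. After MDP it was 32.41 on MDP 6, 30.497 on MDP 9, 31.62 on MDP 12 and 30.601 on MDP 15. 3 of the controls lay earlier than all Tri-DAP arrays, and the remaining one, control 10, was the latest of all 12 arrays, so the groups overlapped. Within the Tri-DAP group, Tri-DAP 11 stood earlier than the rest. Marker levels on these 2 arrays are given as sums, log2 relative to the mean of the 174 miRNAs. On control 10 the endothelial sum was 9.79, where the controls ran from 8.20 to 10.3, and the mural sum was 2.999, where they ran from 0.87 to 5.92. On Tri-DAP 11 the endothelial sum of 10.1 was the highest of its group, from 8.23 upwards, and the mural sum was 3.043 in a range of 0.98 to 5.77. Control 10 was the 1 control with no muscle marker measured, and the muscle sum of -6.34 on Tri-DAP 11 was the lowest of its group, up to -3.66. No muscle marker was measured on all arrays. On control 10 the epithelial sum was 0.79 and the leukocyte sum -0.47, both inside the control range. On Tri-DAP 11 they were 0.96 and -0.68, also inside the range of the group. The part of these markers in the miR-298 values was not tested.

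miR-296-5p was also read on every array and had the tightest controls of the 3 assays. Its Ct was 29.525 on control 4, 29.099 on control 7, 29.95 on control 10 and 28.92 on control 13. After Tri-DAP it was 29.42, 29.19, 29.78 and 27.34 on arrays 5, 8, 11 and 14, and after MDP it was 29.13, 30.03, 28.65 and 28.12 on arrays 6, 9, 12 and 15. The MDP values enclosed the control values on both sides, and the Tri-DAP values reached from among the controls to an earlier Ct. Tri-DAP 14 had the earliest Ct of the 12 arrays, at which miR-298 was among the later ones.

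miR-296-3p, the other arm of the same hairpin, was undetermined on control 7 and MDP 9. Its Ct was 34.37 on control 4, 31.38 on control 10 and 32.86 on control 13. After Tri-DAP it was 32.01, 32.304, 30.16 and 32.535 on arrays 5, 8, 11 and 14, and after MDP it was 32.56, 30.62 and 31.79 on arrays 6, 12 and 15. The groups overlapped, and in each group the array numbered 10 to 12 had the earliest Ct. Both arrays on which it was undetermined carry numbers from 7 to 9, and both measured miR-298 at an early Ct, 29.92 and 30.497.

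**Figure D1:**
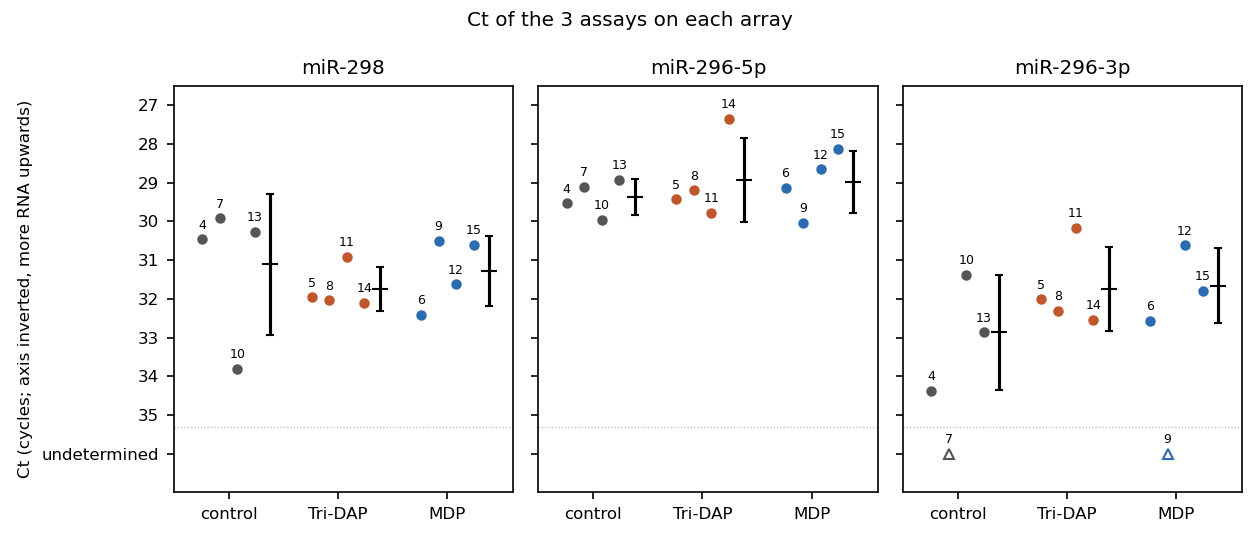
Ct in cycles (vertical axis, inverted so that more RNA is higher) of the 3 assays on the 12 arrays, by group. Each point is 1 array with its label number, bars are the mean ± SD of the measured arrays, and open triangles mark undetermined wells; control 10 has the latest miR-298 Ct, 33.8, and the groups overlap in every panel.

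The first comparison asked whether the NOD1 ligand moved the cluster. The deposited values relative to U6 were used, with the sign turned, so that a higher value is more RNA on a log2 scale. Relative to U6, miR-298 was at -10.62, -9.87, -14.55 and -10.82 on control 4, 7, 10 and 13 and at -12.28, -10.44, -12.35 and -13.83 on Tri-DAP 5, 8, 11 and 14. The controls averaged -11.47 ± 2.10 (SD, n = 4), and the Tri-DAP arrays -12.22 ± 1.39 (SD, n = 4). The difference of -0.76 ± 1.03 (SE) on the log2 scale had a 95% interval of -2.98 to 1.47 and did not pass limma's test (p = 0.476, adjusted p = 0.998) or the two-sided exact permutation test (p = 0.571, smallest possible 0.0286). Control 10 decided much of that value, since without it the difference was -1.78 in the limma fit, and without Tri-DAP 14 it was -0.22. Array by array within the sets of consecutive numbers, Tri-DAP minus control was -1.65, -0.56, 2.20 and -3.01, lower in 3 sets of 4.

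For miR-296-5p, the values relative to U6 were -9.69, -9.06, -10.69 and -9.48 on the controls and -9.75, -7.58, -11.22 and -9.07 on the Tri-DAP arrays, in the same array order. Tri-DAP 8 was above the highest control, Tri-DAP 14 was level with it and Tri-DAP 11 was below the lowest. The means were -9.73 ± 0.69 (SD, n = 4) and -9.40 ± 1.51 (SD, n = 4), and the difference of 0.33 ± 0.76 (SE) had an interval of -1.31 to 1.97 (limma p = 0.674, exact permutation p = 0.829). Relative to U6 its direction hung on 1 array, as it was -0.28 without Tri-DAP 8. That array had the latest mean U6 Ct, 21.6, and its miR-296-5p Ct of 29.19 lay among the controls. Arrays were left out relative to U6 only, so the direction without Tri-DAP 8 on other scales was not tested.

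miR-296-3p was at -14.54, -12.12 and -13.41 on control 4, 10 and 13 and at -12.33, -10.70, -11.60 and -14.26 on Tri-DAP 5, 8, 11 and 14. Tri-DAP 8 and 11 lay above all controls, and Tri-DAP 14 lay near the lowest control. The controls averaged -13.36 ± 1.21 (SD, n = 3) and the Tri-DAP arrays -12.22 ± 1.51 (SD, n = 4), which gave a difference of 1.13 ± 0.88 (SE) with an interval of -0.81 to 3.08 (limma p = 0.226, adjusted p = 0.998, exact permutation p = 0.314). Without Tri-DAP 14 the difference was 1.81 with a limma p of 0.036, the one setting in which a member passed in any of the 3 comparisons of groups, and without control 4 it was 0.54. In the 3 sets with both values, Tri-DAP minus control was 2.21, 0.52 and -0.84 relative to U6. The last sign depended on the reference. Relative to the mean of the miRNAs, Tri-DAP 14 was at -4.22 and control 13 at -4.64, and the Tri-DAP array was the higher in all 3 sets. The control 7 well that was left missing belongs to the set with no such difference.

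None of the 3 miRNAs was called after Tri-DAP, where 1.69% of the 237 miRNAs tested passed an unadjusted limma p under 0.05 (4 calls, or 9 with the sets as a block) and 0 passed after adjustment. The median over all 237 was -0.24, with 178 below 0. miR-298 was on the same side as most miRNAs, and both miR-296 arms were on the other side, but each interval held 0.

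The second comparison asked the same of the NOD2 ligand. After MDP, miR-298 was at -12.20, -10.49, -12.91 and -10.90 relative to U6 on MDP 6, 9, 12 and 15, all within the range of the controls. The mean was -11.62 ± 1.13 (SD, n = 4), and the difference from control was -0.16 ± 1.03 (SE), with an interval of -2.39 to 2.07 (limma p = 0.880, exact permutation p = 0.914). Without control 10 it was -1.19, and without control 7 it was 0.37, so the direction rested on single controls. Within the sets, MDP minus control was -1.58, -0.61, 1.64 and -0.08.

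miR-296-5p was at -8.92, -10.02, -9.94 and -8.41 on MDP 6, 9, 12 and 15. 2 of these values were above all controls and 2 were among them. The mean was -9.32 ± 0.79 (SD, n = 4), and the difference from control of 0.41 ± 0.76 (SE) had an interval of -1.23 to 2.05 (limma p = 0.599, exact permutation p = 0.486). It was 0.64 without MDP 9 and 0.09 without control 10. miR-296-3p was at -12.35, -11.91 and -12.08 on MDP 6, 12 and 15, the closest values of any group for this assay, with a mean of -12.11 ± 0.22 (SD, n = 3). All 3 were above control 4 and control 13, and control 10 lay among them. The difference from control of 1.24 ± 0.94 (SE) had an interval of -0.84 to 3.32 (limma p = 0.215, exact permutation p = 0.2 where 0.1 is the smallest possible). It was 1.86 without control 10 and 0.65 without control 4. Within the 3 sets with both values, MDP minus control was 2.19, 0.21 and 1.33, higher in each, and for miR-296-5p it was 0.78, -0.96, 0.75 and 1.07, higher in 3 sets of 4. None of the 3 miRNAs was called, beside 1.23% of 244 miRNAs tested (3 calls, or 6 with the sets as a block), whose median difference was -0.02.

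Both ligand groups were also set against each other in the same fit. MDP minus Tri-DAP was 0.60 ± 1.04 (SE, interval -1.64 to 2.84) for miR-298, 0.08 ± 0.76 (SE, interval -1.57 to 1.73) for miR-296-5p and 0.11 ± 0.89 (SE, interval -1.85 to 2.07) for miR-296-3p. The limma p-values were 0.574, 0.916 and 0.905, and the exact permutation p for miR-298 was 0.543. None of the 3 was called, beside 2.90% of 241 miRNAs tested. The miR-298 value was 0.06 without Tri-DAP 14 and 1.19 without Tri-DAP 8. The comparisons with control share the control arrays, so the values of one miRNA in both are not independent. The intervals are wide, and in each of the 9 comparisons they leave room for a change of 2-fold in at least one direction.

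**Figure D2:**
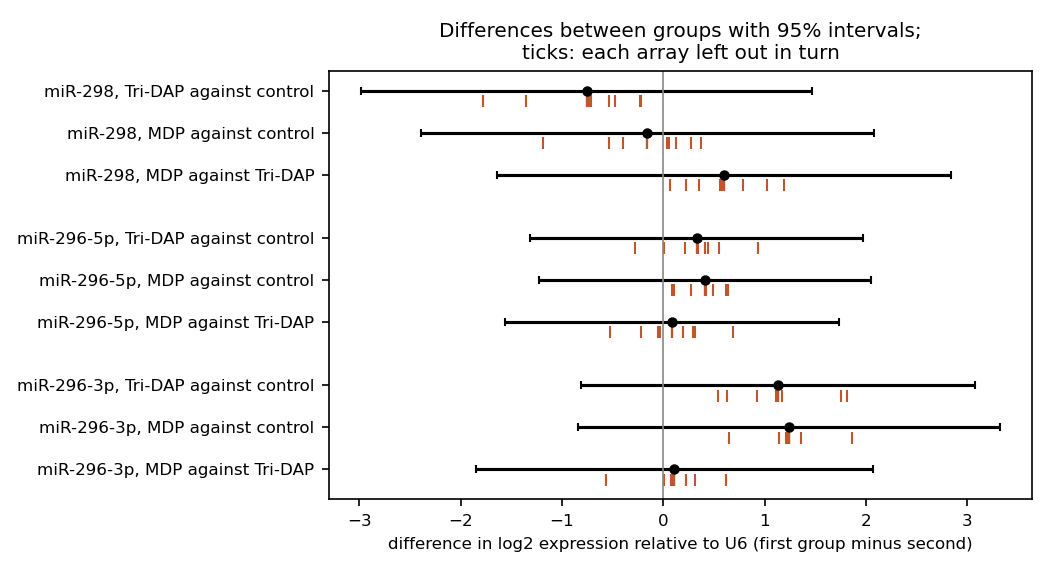
Difference in log2 expression relative to U6 (horizontal axis) for the 3 assays in the 3 comparisons. Points are the limma estimates with 95% intervals and the ticks below are the estimates with each array left out; every interval holds 0, and leaving out control 10 moved miR-298 after Tri-DAP from -0.76 to -1.78.

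Whether the neighbours varied together was asked over single arrays. Relative to U6, miR-298 and miR-296-5p had a Pearson r of 0.46 over 12 arrays (permutation p = 0.137, adjusted over 3 pairs 0.412) and a Spearman rho of 0.48 (permutation p = 0.116). On 8 of 12 arrays both were on the same side of their medians. With the group means taken out r was 0.50 (exact permutation p = 0.101), and without the 2 arrays farthest from the miR-298 median, control 10 and Tri-DAP 14, it was 0.47 (permutation p = 0.170). These values miss the threshold on either measure.

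The r of both miRNAs depended on what they were measured against. The same U6 value is subtracted from both on an array, and the mean U6 Ct ran from 18.3 on Tri-DAP 14 to 21.6 on Tri-DAP 8. With snoRNA202, another reference RNA, averaged into U6, r was 0.15 (permutation p = 0.651). Relative to the mean of the 174 miRNAs it was 0.08 (permutation p = 0.796, rho -0.03), and on the Ct with no reference it was 0.04 (permutation p = 0.900). With the means of the sets of consecutive array numbers taken out, r relative to U6 was -0.06 (exact permutation p = 0.853) and r relative to the mean of the miRNAs was -0.39 (exact permutation p = 0.312). Inside such a set there are 3 arrays, 1 of each group, too few for an r of its own.

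**Figure D3:**
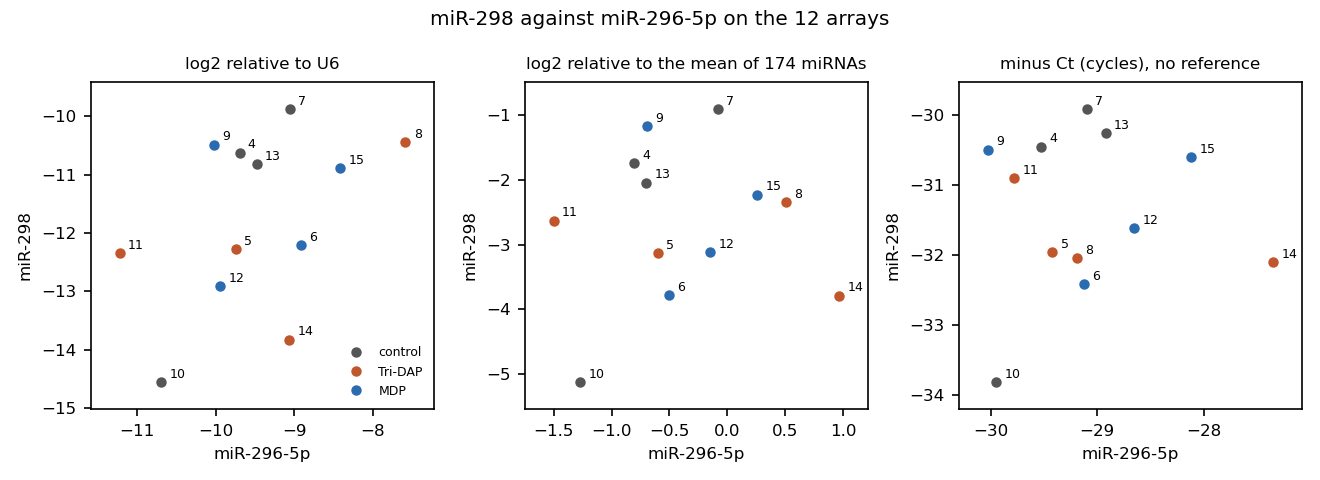
miR-298 (vertical axis) against miR-296-5p (horizontal axis) on the 12 arrays, numbered and coloured by group, relative to U6 (left, log2), relative to the mean of 174 miRNAs (middle, log2) and as minus Ct in cycles (right). r is 0.46, 0.08 and 0.04 from left to right.

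miR-298 and miR-296-3p were both measured on 10 arrays, with an r of 0.04 relative to U6 (permutation p = 0.901, rho -0.02, within groups 0.07). Relative to the mean of the miRNAs it was -0.32 (permutation p = 0.362) and on the Ct it was -0.25 (permutation p = 0.487). The arms of the miR-296 hairpin, which are cut from 1 molecule, had an r of 0.12 relative to U6 (permutation p = 0.754, rho -0.07), -0.13 relative to the mean of the miRNAs and -0.11 on the Ct. Adjusted over 3 pairs, none passed. With set means taken out, r relative to U6 was 0.15 for miR-298 and miR-296-3p and 0.37 for both arms (exact permutation p = 0.870 and 0.389, 9 arrays). Direction and size moved with the reference for these 2 pairs.

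These r values were set beside those of other miRNAs on the same arrays, as a description with no test, since all pairs share arrays and references. Over 15051 pairs of the 174 miRNAs measured on all arrays, the median r relative to U6 was 0.46, and the pair miR-298 and miR-296-5p was above 49.6% of them. Neighbours could be found only among assays matched by name to RefSeq. The 97 such pairs of different mouse miRNA genes within 10 kb on 1 strand had a median of 0.61. Of the 97, 25 had a lower r than miR-298 and miR-296-5p. Relative to the mean of the miRNAs the medians were 0.01 over all pairs and 0.40 over neighbours, beside 0.08 for miR-298 and miR-296-5p, and 22 of 97 neighbours were lower. On the Ct they were 0.24 and 0.66, beside 0.04, and 16 of 97 were lower. miR-17 and miR-20a, cut from 1 transcript of the miR-17-92 cluster, reached an r of 0.98 relative to U6, and let-7e and miR-99b 0.96. Some neighbours have nearly the same sequence, such as let-7b and let-7c, or several gene copies. Whether an assay of one also reads the other was not tested for any pair, miR-17 and miR-20a included.

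The arms of other hairpins gave the nearest background for the miR-296 arms. Among assays matched by name to RefSeq, 7 hairpins had both arms measured on all arrays. Their median r was 0.37 relative to U6, 0.05 relative to the mean of the miRNAs and -0.04 on the Ct. Hairpins whose assay names were not matched are left out. They include that of miR-126-3p and miR-126-5p, both measured on all 12 arrays, so this background is incomplete. On the 10 arrays with miR-296-3p, 3 of these 7 arm pairs had a lower r than both miR-296 arms on each of these scales. Of 98 neighbour pairs on these arrays, 12 had a lower r relative to U6 than the miR-296 arms and 8 had a lower r than miR-298 and miR-296-3p.

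**Figure D4:**
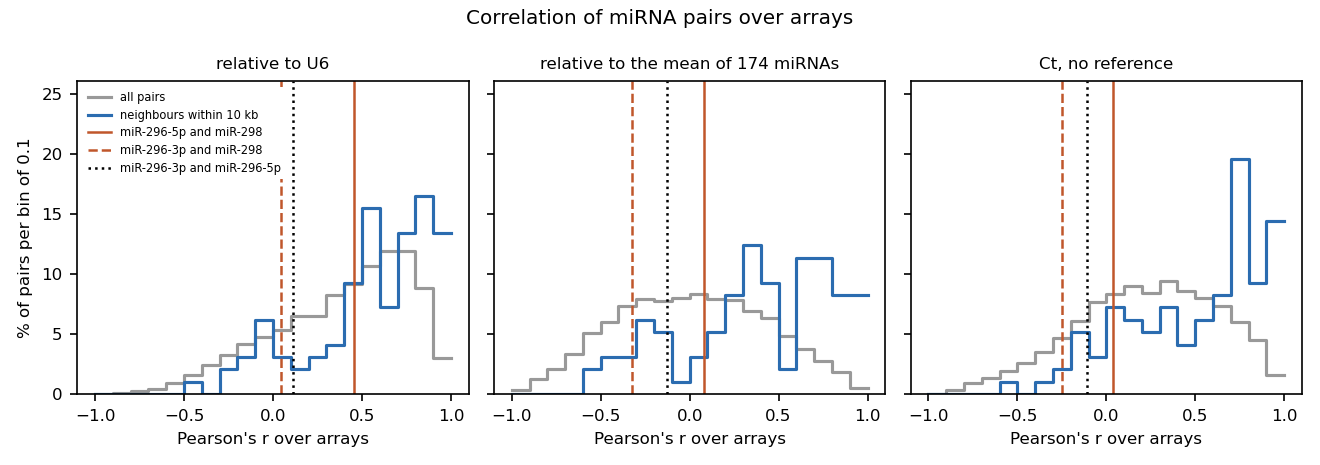
Share of miRNA pairs (vertical axis, % per bin of 0.1) by Pearson's r over the 12 arrays (horizontal axis) for all 15051 pairs and for 97 neighbouring pairs, with 3 references. Vertical lines mark the 3 pairs of miR-296 and miR-298 assays (those with miR-296-3p over 10 arrays), which lie at or below the middle of the neighbouring pairs in each panel.

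The ratio of 2 assays on the same array needs no reference, since it is the difference of their Ct. miR-298 over miR-296-5p was -0.93, -0.82, -3.85 and -1.34 on the log2 scale on control 4, 7, 10 and 13. It was -2.53, -2.85, -1.13 and -4.76 on Tri-DAP 5, 8, 11 and 14 and -3.29, -0.47, -2.97 and -2.49 on MDP 6, 9, 12 and 15. 3 of 4 controls were above 3 of 4 Tri-DAP and 3 of 4 MDP arrays, while control 10 was lower than all but Tri-DAP 14. The controls averaged -1.73 ± 1.43 (SD, n = 4), the Tri-DAP arrays -2.82 ± 1.495 (SD, n = 4) and the MDP arrays -2.30 ± 1.27 (SD, n = 4). Tri-DAP minus control was -1.08 (two-sided exact permutation p = 0.314), MDP minus control -0.57 (exact permutation p = 0.543) and MDP minus Tri-DAP 0.52 (exact permutation p = 0.629). Without control 10 the Tri-DAP difference was -1.79 (exact permutation p = 0.0857), and without Tri-DAP 14 it was -0.44.

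miR-298 over miR-296-3p ran from -2.43 on control 10 to 3.91 on control 4, a span that took in all values of the other groups. It was 0.05, 0.26, -0.75 and 0.43 on Tri-DAP 5, 8, 11 and 14, and 0.15, -1.002 and 1.19 on MDP 6, 12 and 15. The controls were spread more widely, with Tri-DAP minus control at -1.36 (exact permutation p = 0.4) and MDP minus control at -1.25 (exact permutation p = 0.6). Without control 10 these were -3.25 and -3.14 (exact permutation p = 0.0667 and 0.1, each the smallest that the 2 remaining controls allow), with both of those controls above all Tri-DAP and MDP arrays. Without control 4 the differences were -0.08 and 0.03. With 3 controls against 3 MDP arrays, no p under 0.1 was possible for the ratios to miR-296-3p. The 5p arm of miR-296 was read earlier than the 3p arm on all 10 arrays that measured both, by 0.38 cycles on Tri-DAP 11 to 5.19 cycles on Tri-DAP 14. Tri-DAP minus control for that arm ratio was -0.58 and MDP minus control -0.38 (exact permutation p = 0.714 and 0.8). Over the 9 comparisons of ratios, the adjusted p was 0.971 throughout.

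**Figure D5:**
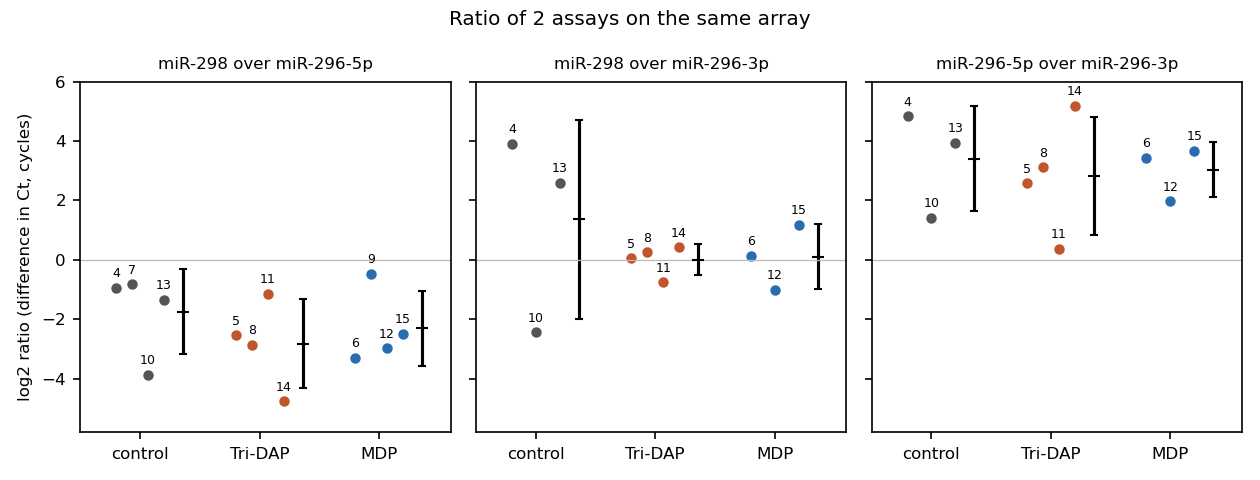
Log2 ratio of 2 assays on the same array (vertical axis, the difference in Ct in cycles) by group, with array numbers and the mean ± SD. Control 10 has the lowest ratio of miR-298 to either miR-296 arm among the controls, and the arm ratio of miR-296 lies above 0 on all 10 arrays.

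The spread of these ratios over arrays shows how tightly 2 miRNAs kept step. The SD of miR-298 over miR-296-5p was 1.35 over 12 arrays, where the median of all pairs was 1.09 and that of neighbours 0.83, and 76 of 97 neighbouring pairs kept a smaller SD. Over 10 arrays it was 1.501 for the miR-296 arms and 1.80 for miR-298 over miR-296-3p, and 80 and 86 of 98 neighbouring pairs had a smaller one. miR-17 and miR-20a, read at earlier Ct, kept 0.21, and whether either assay also reads the other was not tested. Later assays scatter more, and the part of a late Ct in these SDs was not tested.

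The sets of consecutive array numbers accounted for less of miR-298 and miR-296-5p than of most miRNAs. Relative to the mean of the 174 miRNAs and with group means taken out, 46.9% of the sum of squares of miR-298 and 49.0% of that of miR-296-5p lay between the 4 sets, beside a median of 76.2% over the 174 miRNAs and 98.4% for miR-145. For miR-296-3p it was 84.3%, where 1 of the sets had a single measured array. With the sets as a block in the limma fit, Tri-DAP minus control was -0.76 for miR-298 and 0.63 for miR-296-3p, and no member was called. The SEs and intervals printed above are of the fit without a block, so the spread between sets is part of them.

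The miRNAs most like each member were taken by r relative to the mean of the miRNAs, over the arrays that measured the member. For miR-298 they were miR-667 (r = 0.70), the rat assay miR-345-3p (0.64), miR-98 (0.64), miR-26b (0.60) and miR-125b-5p (0.56), and miR-296-5p came 89th of 173. For miR-296-5p they were miR-411 (0.68), the hypoxia-linked miR-210 (0.67), miR-185 (0.66), miR-129-3p (0.63) and miR-409-3p (0.57), and miR-298 came 67th of 173. For miR-296-3p, over 10 arrays, they were the inflammation-linked miR-155 (0.89), miR-30c (0.86), miR-26a (0.84), miR-30b (0.82) and miR-186 (0.71), and miR-296-5p and miR-298 came 125th and 152nd of 178. The 3 lists had no miRNA in common. Each is the top of a ranking over many assays and few arrays, and the values describe these arrays.

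Other imprinted miRNA groups on the arrays were counted from a list written by hand. At Dlk1-Dio3, the large imprinted miRNA cluster expressed from the maternal chromosome, 44 assays were present, of which 23 were tested after Tri-DAP and 26 after MDP. 0 were called in either direction, where the shares over all miRNAs tested (1.69% and 1.23%) would give less than 1 call, with median differences of -0.75 and -0.03. Among 9 assays of the Sfmbt2 group, whose host gene is imprinted, 6 were tested and 0 called, again with less than 1 call to be had at those shares, with medians of -0.12 after Tri-DAP and -0.07 after MDP. Both miR-335 assays of Mest were tested and 0 called, with medians of -0.43 and -0.25, and the 2 assays of Igf2 and H19 had too few measured values to be tested. Beside these, miR-298 was at -0.76 after Tri-DAP and -0.16 after MDP, miR-296-5p at 0.33 and 0.41, and miR-296-3p at 1.13 and 1.24, over a median of all miRNAs of -0.24 and -0.02.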

How the data were processed

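RNA of 12 samples was measured, grouped by the labels. According to the paper, 350 ng of total RNA per sample was reverse-transcribed and each array run for 40 cycles. The authors deposited Ct values in cycles, which are on a log2 scale and not normalized, with 40 for undetermined wells, and normalized values, which were checked to be Ct minus the mean of the 4 U6 wells of the array, within 5.33e-15. A deposited fold change table (a ratio) holds the authors' own comparisons and was not used, nor were 12 unnamed columns. No use was made of HTqPCR, a package of the study's own analysis.

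The deposited log2 values relative to U6 were taken with the sign turned and wells at 40 missing. A single model over all 12 arrays was fitted by lmFit and eBayes (limma 3.58.1, R 4.3.3), with a mean per group and no block. A miRNA was tested with at least 2 measured values in each group compared and called at an unadjusted limma p under 0.05, with Benjamini-Hochberg adjustment over all tested beside it. The fit was tested on simulated data. The simulated arrays were independent, with no difference between sets. The simulation therefore cannot say how the fit behaves on arrays that differ between sets. Single assays and ratios were tested by two-sided exact permutation, and correlations by 100000 permutations of arrays, or by all permutations under 10 arrays, within groups or within sets. Arrays were taken as independent, because no source ties an array to an isolation. The paper speaks of 4 isolations, so these p-values may not hold where arrays share one. U6 wells of an array had an SD of 0.11 to 2.05 cycles, and the number of arrays limits the precision.

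Sequences and positions are those of RefSeq, GRCm38.p6, in which 280 of 335 mouse assays were matched to a miRNA gene, and 40 assays are of rat sequence. Neighbours were different miRNA genes within 10 kb on 1 strand. Neighbours and arms of a hairpin were sought among the matched assays only. Named were the 3 members, the 5 assays most like each by r, the reference RNAs, markers and, as examples chosen after their values were seen, a few neighbours. The members and lists were chosen with earlier results of these data known. Alternatives covered undetermined wells, a Ct limit, the reference, the values required, the arrays in the fit, the moderation, the test, each array left out and, added after seeing the data, sets of consecutive array numbers as a block.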

Additional observations from a re-analysis of the deposited data

Results flagged for a closer look

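2 values stood apart from the other arrays of their group, both of miR-298. On control 10 its Ct was 33.8, where the other controls were at 29.9 to 30.5. On Tri-DAP 11 its Ct was 30.9, where the other Tri-DAP arrays were at 31.95 to 32.104. In both cases the gap to the nearest array was over the limit of Dixon's test for 4 values. 19 groups of 4 values were examined, of which 0.95 would be expected to be set apart by chance, at 1 in 20. Both arrays belong to numbers 10 to 12, and relative to U6 neither gap was over that limit. On that scale control 10 was still the lowest of all 12 arrays, at -14.55, where the other controls were at -10.82 to -9.87.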

How the results depend on the processing

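The 9 comparisons of the members missed the threshold in all settings run except one (below). The 9 of their ratios missed it too, but those of MDP against control with miR-296-3p could not pass with 3 arrays a group, nor those with miR-296-3p that left 2 controls, so this says nothing about their stability. Counts of miRNAs called were less stable. After Tri-DAP 4 became 8 with undetermined wells kept at 40, 7 with no normalization, 1 with all 12 arrays measured, 9 with the replicate block of consecutive numbers and 1 to 12 with an array left out. After MDP 3 became 5 with U6 and snoRNA202, with the mean of the miRNAs or with 2 groups in the fit, 6 with the replicate block, 1 with at least 3 values or the methods' t-test, 0 with all 12 arrays measured and 1 to 7 with an array left out. For MDP against Tri-DAP 7 became 4 with Ct over 35 missing or the methods' t-test, 3 with at least 3 values, 0 with all 12 arrays measured and 2 to 17 with an array left out.

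Leaving out an array gave -1.78 to -0.22 (Tri-DAP), -1.19 to 0.37 (MDP) and 0.06 to 1.19 (MDP minus Tri-DAP) for miR-298, -0.28 to 0.93, 0.09 to 0.64 and -0.52 to 0.69 for miR-296-5p, and 0.54 to 1.81, 0.65 to 1.86 and -0.57 to 0.62 for miR-296-3p, where 1.81 without Tri-DAP 14 passed. MDP minus Tri-DAP changed sign to -0.12 (mean of the miRNAs) and -0.048 (no normalization) for miR-296-5p, and to -1.86 (undetermined wells at 40) and -0.18 (mean of the miRNAs) for miR-296-3p. The replicate block changed no call of a member.

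The r of miR-298 and miR-296-5p was -0.058 with the replicate block and 0.31 to 0.58 without single arrays. Within groups it was 0.32 to 0.64, passing without MDP 9 (0.61) and without Tri-DAP 14 (0.60). For miR-298 and miR-296-3p, r over arrays and within groups was -0.20 and -0.19 with U6 and snoRNA202, -0.32 and -0.37 with the mean of the miRNAs, -0.25 and -0.25 with no normalization, -0.46 and -0.41 with undetermined wells at 40, and -0.23 to 0.35 and -0.43 to 0.74 without single arrays. For the miR-296 arms r over arrays and within groups was -0.086 and -0.31 with U6 and snoRNA202, -0.13 and -0.51 with the mean of the miRNAs, -0.11 and -0.38 with no normalization, within groups 0.020 with undetermined wells at 40, and without single arrays -0.34 to 0.35 and -0.75 to 0.16. The cause was not tested.

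Without single arrays, the ratios ran, for Tri-DAP minus control, MDP minus control and MDP minus Tri-DAP, from -1.79 to -0.44, -1.27 to -0.24 and -0.13 to 1.08 (miR-298 over miR-296-5p), from -3.25 to -0.08, -3.14 to 0.028 and -0.43 to 0.67 (miR-298 over miR-296-3p) and from -1.57 to 0.23, -1.36 to 0.34 and -0.61 to 0.997 (miR-296-5p over miR-296-3p). No label number is shared by 2 arrays, so the block rests on the sets seen in the data. The number of arrays, a late Ct and missing wells limit what could be seen.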
